A study of Mus musculus with 7 samples.

Results

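First-intron sites were accessible chromatin sites lying inside the first intron of a gene but away from its start site. They were the autosomal ATAC-Seq peaks whose summit fell in the first intron of the longest protein-coding transcript of a protein-coding gene (GENCODE vM21, mouse build mm10), outside every annotated exon and more than 2000 bp from any protein-coding start site. Summits of the 7 libraries within 250 bp of the strongest one were merged into 1 site. This gave 23301 first-intron sites among 234817 autosomal sites (9.92%) and 240504 sites when X and Y were added. The other autosomal sites were 59270 in other introns, 85358 between genes, 53666 within 2000 bp of a start site and 13222 in exons. Membership used the position of the strongest summit of a site, with strength ranked by fold enrichment within each library. No threshold on accessibility was added to the peak call. Merging placed 438 of 122850 first-intron summits in sites led by another class, and 309 other summits in first-intron sites.

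ATAC-Seq measures open chromatin by letting a transposase cut DNA that is not packed by nucleosomes. The cells were LSK cells (Lineage-negative, Sca-1-positive, c-Kit-positive), the bone marrow compartment of hematopoietic stem cells and early progenitors, sorted from adult C57/BL6 offspring of 8 to 12 weeks. Ctrl offspring (3 libraries) were born to normal dams, and WTAkita offspring (4 libraries) were wild-type pups born to dams with maternal diabetes caused by the heterozygous Ins2 Akita allele, and the dams of both groups had received a diet with 60 kcal% fat before breeding. Each library was made from 50000 sorted cells, and the study's methods describe sorting from pooled marrow and call the libraries biological replicates. How many mice stood behind a library was not given in the sources used here, and p-values measure only the spread between these libraries.

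Introns are removed from the transcript, and the first intron of a mammalian gene is often its longest. It commonly holds enhancers, stretches of DNA bound by transcription factors that raise transcription from the nearby start site. In blood stem cells such elements are typically bound by factors of the ETS (with PU.1), RUNX, GATA and MYB families.

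The sequences below are shown so that the sites with the highest accessibility, the sites with the clearest separation of the groups, the leading sites called in 1 group only and the leading sites of 3 gene lists can be read directly. Each runs from 50 bases before the summit to 50 bases after it, on the plus strand of mm10, read from the RefSeq copy of that build. Capitals mark a match to one of the 13 short motifs that were searched on both strands, and a sequence without capitals held none of them in this stretch.
Il31ra, chr13:112578141-112578241: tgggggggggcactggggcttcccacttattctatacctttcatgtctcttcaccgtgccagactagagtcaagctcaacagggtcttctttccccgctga
Tmem56, chr3:121243037-121243137: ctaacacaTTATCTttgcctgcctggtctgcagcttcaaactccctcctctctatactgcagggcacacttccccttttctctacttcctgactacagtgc
Efna5, chr17:62844424-62844524: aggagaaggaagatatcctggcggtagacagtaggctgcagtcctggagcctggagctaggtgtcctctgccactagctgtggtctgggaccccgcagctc
Fam155a, chr8:9404003-9404103: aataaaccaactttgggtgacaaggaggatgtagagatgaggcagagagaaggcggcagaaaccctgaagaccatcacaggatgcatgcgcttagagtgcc
St6galnac3, chr3:153616958-153617058: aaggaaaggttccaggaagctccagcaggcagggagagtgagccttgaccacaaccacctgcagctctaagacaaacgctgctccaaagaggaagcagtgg
Mindy2, chr9:70650345-70650445: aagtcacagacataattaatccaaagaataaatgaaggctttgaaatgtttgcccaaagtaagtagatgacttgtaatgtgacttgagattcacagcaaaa
Pid1, chr1:84245388-84245488: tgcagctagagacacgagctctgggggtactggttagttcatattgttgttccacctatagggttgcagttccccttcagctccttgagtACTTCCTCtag
Gna14, chr19:16527203-16527303: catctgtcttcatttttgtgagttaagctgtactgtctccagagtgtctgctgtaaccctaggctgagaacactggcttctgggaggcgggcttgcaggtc
Enpp6, chr8:46992345-46992445: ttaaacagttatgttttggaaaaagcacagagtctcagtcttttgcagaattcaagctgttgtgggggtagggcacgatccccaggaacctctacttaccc
Runx3, chr4:135128909-135129009: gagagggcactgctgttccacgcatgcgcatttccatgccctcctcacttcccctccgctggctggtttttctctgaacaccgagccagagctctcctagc
Igf1r, chr7:67985143-67985243: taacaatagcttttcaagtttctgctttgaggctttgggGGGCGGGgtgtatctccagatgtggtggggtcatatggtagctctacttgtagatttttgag
Aim2, chr1:173377582-173377682: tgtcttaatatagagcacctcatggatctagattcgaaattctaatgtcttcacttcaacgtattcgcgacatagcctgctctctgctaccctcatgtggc
Of these 12 sequences, 3 held a motif near the summit. They were the GATA letters at Tmem56, the PU.1 letters at Pid1 and the SP/KLF letters at Igf1r.

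The depth of the libraries was estimated at 3.76e+07 to 5.31e+07 tags, and the median summit pileup, the number of tags stacked at the top of a peak, was 40.0 to 53.0. Fold enrichment, which divides that pileup by the library's own local background, had a median of 4.69 to 5.66 over all peaks of a library. At sites called in all 7 libraries, WTAkita replicates 1 and 2 and Ctrl replicate 1 had the lowest medians. The labelled cell type was checked at start sites. All 11 LSK markers, Kit, Cd34, Flt3, Meis1 and Mecom among them, had a called site in all 7 libraries. The summed fold enrichment of the LSK list was 123 to 134 in Ctrl and 110 to 140 in WTAkita. Lists differ in size, so that sums of different lists cannot be compared. Of the markers of other cells, called sites in all 7 libraries were present at 3 of 5 B cell, 3 of 5 T cell, 1 of 6 neutrophil, 3 of 5 erythroid, 4 of 5 megakaryocyte, 2 of 3 NK cell and 5 of 5 stromal and endothelial genes. Their sums were 31.5 to 39.4 in WTAkita against 35.4 to 41.2 in Ctrl for B cells, and 13.8 to 23.7 against 17.2 to 20.1 for neutrophils. For T cells the sums were 39.6 to 44.0 against 39.0 to 43.4, and for erythroid genes 27.7 to 44.4 against 35 to 43.1. They were 34.9 to 41.2 against 34.9 to 39.2 for megakaryocytes, 25.8 to 41.3 against 31.2 to 39.2 for NK cells, and 47.8 to 64.4 against 55.1 to 62.5 for stroma and endothelium. No site was called in any library at Ms4a1, Cd8a, S100a9, Camp, Ngp, Slc4a1, Ppbp and Ncr1. The groups overlapped in every list, and the part of other cells in the results was not tested.

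The sites were spread over many genes and lay well inside long introns. Of 19417 autosomal genes with a first intron, 4929 (25.4%) held at least 1 site. A site had to lie over 2000 bp from any start site, so genes with a short first intron could hardly hold one. The share of genes and the position inside long introns thus follow in part from the rule. The median was 3 sites per gene with any, 1568 genes held 1 site and 570 held 10 or more. One gene model stood apart. Gm20388, on chromosome 8, has a first intron of 4384418 bp that runs over many other genes, and 833 sites lay in no other first intron, 481 of them called in all 7 libraries. Their median level was a normalized log2 fold enrichment of 2.63, against 2.69 for the other first-intron sites called in all libraries. Without them, the median site lay 17161.5 bp from the start site of its own gene (quartiles 8332.75 and 38066.8 bp) in an intron of 38721 bp. When each intron was divided into 4 equal stretches from its 5′ end, these held 17.3%, 26.6%, 28.5% and 27.6% of the sites, and the first of them is the stretch from which the rule removed the 2000 bp next to the start site.

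First introns were denser in sites than other introns. Without the Gm20388 sites there were 125 sites per Mb of eligible first-intron sequence against 91.5 per Mb in other introns. Within single libraries the mean density of called sites was 88.9 per Mb (range 83.6 to 93.2) against 65.4 per Mb (61.5 to 68.9). First introns were denser in 7 of 7 libraries, by 23.5 ± 0.981 sites per Mb (SD, n = 7, two-sided exact sign-flip permutation p = 0.0156, the smallest this test can give, adjusted p = 0.0208 over 4 measures). This test and the sign-flip tests below were chosen after their values were seen, and all libraries read the same loci. The excess depended on the distance from the nearest start site. Between 5 and 10 kb it was 172 against 131 sites per Mb, and between 10 and 20 kb it was 164 against 122 sites per Mb. Between 50 and 100 kb the order turned, with 80.4 against 84.2 sites per Mb, and beyond 100 kb both were low, with 39.6 and 42.2. Intron length went with density too. Introns of 20 to 50 kb held 14.8 sites per 100 kb and 85.0% of them held a site, whereas introns of 2 to 5 kb held 3.69 sites per 100 kb and 8.95% held one. Introns of 300000 to 1000000 bp held 2.33 sites per 100 kb. These densities were taken over the whole intron, with the 2000 bp next to the start site that the rule left out. The low values of short introns thus follow in part from the rule, and lengths were not compared on eligible sequence.

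**Figure D1:**
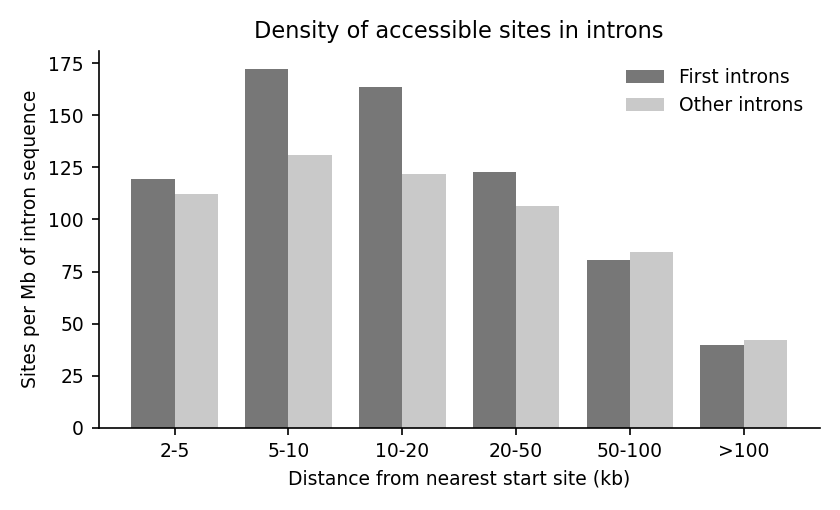
Sites per Mb of intron sequence (y axis) against distance from the nearest protein-coding start site in kb (x axis), for first introns without the sites of Gm20388 alone (dark bars) and for other introns (light bars), all 7 libraries merged. First introns reached 172 sites per Mb between 5 and 10 kb, where other introns reached 131, and lay just below other introns beyond 50 kb.

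First-intron sites had a lower fold enrichment than sites in other introns, although their pileups, with all distances pooled, were not lower. Over the 11910 first-intron sites called in all 7 libraries, the median library value of the log2 fold enrichment averaged 2.70, against 2.91 in other introns. The difference was -0.21 ± 0.03 (SD, n = 7), lower in 7 of 7 libraries (two-sided exact sign-flip permutation p = 0.0156, adjusted p = 0.0208). The log2 summit pileup at the same sites went the other way, by 0.07 ± 0.05, higher in 6 of 7 libraries and equal in the other one (exact sign-flip permutation p = 0.0312, adjusted p = 0.0312). The log2 local background, solved from the same values, was higher in first introns by 0.41 ± 0.03 in 7 of 7 libraries (exact sign-flip permutation p = 0.0156, adjusted p = 0.0208). Fold enrichment divides the pileup by that background, so that these measures are tied and the background is not separate evidence. With all distances pooled, the first-intron sites thus had a higher background and a lower ratio at a pileup that was equal or higher. Counted by fold enrichment, sites in the strongest quartile of all tested autosomal sites occurred at 11.8 per Mb in first introns and at 11.8 per Mb in other introns. Counted by a mean pileup over 100 tags, they occurred at 15.3 and 10.6 per Mb.

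The same split appeared along the intron. Sites 2 to 5 kb from the start site of their own gene had a median fold enrichment of 4.98 with a median pileup of 82.8 tags over a background of 15.9. Sites at 5 to 10 kb had 6.37 with 51.9 tags over 6.20, and sites at 50 to 100 kb had 6.81 with 46.6 tags over 4.95. The nearest sites thus had the lowest fold enrichment and the highest pileup. At matched distances of 10 to 20 kb from the nearest start site, the median log2 fold enrichment was 2.76 in first introns and 2.95 in other introns, with backgrounds of 5.64 and 4.74 tags. Beyond 100 kb the medians were 2.77 and 2.87. At matched distances the median pileup was lower in first introns in 4 of 6 distance bins, with 51.9 against 52.9 tags at 5 to 10 kb, 50 against 52.7 at 10 to 20 kb, 46.6 against 48.9 at 20 to 50 kb and 41.7 against 42.1 beyond 100 kb. It was higher at 2 to 5 kb (76.4 against 68.3) and at 50 to 100 kb (45 against 44.6), and these pileups were not tested. The higher pooled pileup of first introns was thus not seen at most matched distances. Around the 2000 bp limit, 637 sites called in all libraries between 1500 and 2000 bp, which the rule left out, had a median log2 fold enrichment of 2.34 and a pileup of 78.0 tags. The 467 such members between 2000 and 2500 bp had 2.33 and 79.9 tags, so that the limit cut through a continuum.

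**Figure D2:**
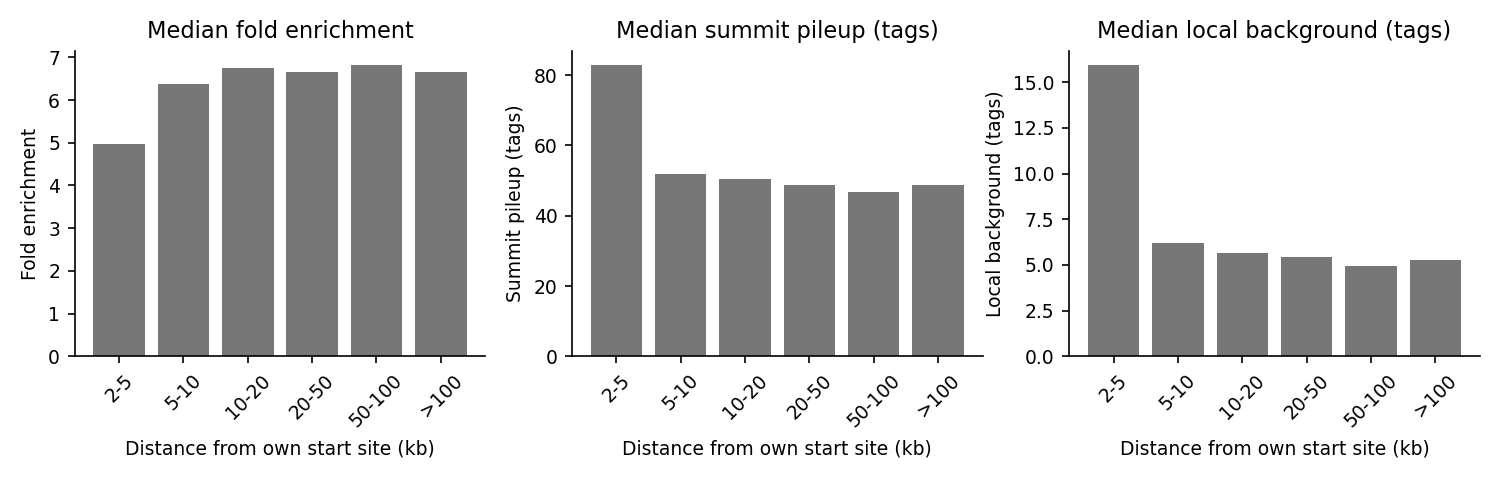
Median fold enrichment (left), median summit pileup in tags (middle) and median local background in tags (right) of first-intron sites called in all 7 libraries, by distance in kb from the start site of the own gene (x axes), with no error bars. Fold enrichment was lowest (4.98) and pileup highest (82.8 tags) at 2 to 5 kb, where the background was 15.9 tags, and the bin over 100 kb includes sites of Gm20388.

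Maternal diabetes was not accompanied by a detectable shift of first-intron sites relative to other sites. Ctrl libraries had 16319, 17111 and 16525 first-intron sites called, and WTAkita libraries had 15682, 16148, 17347 and 17459, so that the Ctrl values lay within the range of the WTAkita values. As a share of the autosomal sites called, they made up 9.57%, 9.63% and 9.61% in Ctrl and 9.50%, 9.55%, 9.67% and 9.87% in WTAkita. The Ctrl mean was 9.60% ± 0.0299 (SD, n = 3) and that of WTAkita 9.64% ± 0.165 (SD, n = 4). They differed by 0.0401 percentage points (two-sided exact permutation test p = 0.857), and by -0.0338 without WTAkita replicate 4. The gap of the median log2 fold enrichment to other introns came to -0.18, -0.23 and -0.24 in the Ctrl libraries, and the WTAkita libraries had -0.15, -0.18, -0.22 and -0.24. It differed between the groups by 0.02 (two-sided exact permutation test p = 0.400). Against sites between genes, in exons and at start sites the corresponding differences were 0.02, -0.01 and -0.01, with exact permutation p-values of 0.400, 0.514 and 0.857. Over these 6 measures, the number of called sites included, all adjusted p-values were 1.00, and the smallest two-sided p that 3 against 4 libraries allow in this test is 0.0571.

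**Figure D3:**
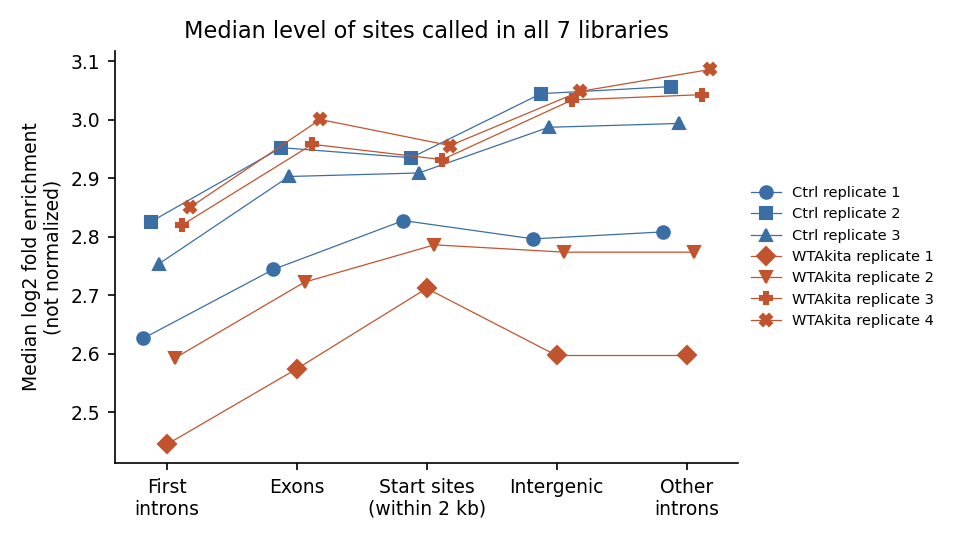
Median log2 fold enrichment (y axis, not normalized) of the sites called in all 7 libraries, by position class (x axis), with 1 symbol per library joined by a line, Ctrl in blue and WTAkita in orange. First introns were below other introns in each library. The Ctrl medians lay within the wider range of the WTAkita medians in every class, with Ctrl replicate 1 and WTAkita replicates 1 and 2 lowest in first introns, at 2.63, 2.45 and 2.59.

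Many sites were called in some libraries and not in others. Of the first-intron sites, 51.1% were called in all 7 libraries and 16.4% in 1 library alone, against 55.0% and 14.9% of the other autosomal sites. Sites called in 1 library had a median pileup of 15.0 tags, and those called in 6 had 20.3, against 53.0 for those called in 7. Among sites called in all libraries, the median spread between libraries of a group was 0.22 to 0.23 on the log2 scale in the 2 weaker quartiles of fold enrichment and 0.12 in the strongest quartile.

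In base composition the sites resembled other introns rather than start sites. The median GC content of the 501 bases around the summit was 48.1% in first introns, 47.5% in other introns and 59.1% at start sites. The ratio of observed to expected CpG was 0.206, 0.209 and 0.655. Repeat-masked bases made up 15.3% of the central 201 bases in first introns and 15.4% in other introns. Only 2 first-intron sites, in Zdhhc3 and Zfp804b, had a window similar to the mitochondrial genome (BLAST, 85.8% identity over 373 bp and 81.8% over 329 bp), and neither belonged to the strongest sites.

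Motif letters of blood transcription factors were found at the sites at rates close to those in other introns. The 201 bases around the summit of the sites called in all libraries were searched on both strands. The RUNX letters TGTGGTT were present at 11.6% of first-intron sites, 11.8% of other-intron sites and 4.22% of start-site sites. The PU.1 letters GAGGAAGT were present at 9.32%, 9.31% and 3.74%. The GATA letters AGATAA, which the longer form CAGATAAG contains, were present at 8.80%, 8.90% and 3.73%, and the longer form at 0.991%, 0.892% and 0.318%. In contrast, the SP/KLF letters GGGCGGG, typical of promoters, were present at 4.19%, 3.65% and 27.1%, and the ETS letters CCGGAAGT at 0.487%, 0.449% and 2.72%. The core of the motif of CTCF, a factor that anchors chromatin loops, AGGGGGC, was present at 5.19% of first-intron sites, below the 7.06% of other introns and the 6.81% of sites between genes. The E-box CAGCTG was present at 15.7% and 14.6% of first-intron and other-intron sites, and the MYB letters CAACTG at 11.7% and 11.0%. The AP-1 letters TGANTCA were present at 9.16% and 8.66%, and the ETS-IRF letters GGAANTGAA at 3.42% and 3.54%. The CEBP letters TTGCNNCAA were present at 1.56% and 1.65%, and the HOX-MEIS letters TGATTTAT at 1.04% and 0.899%. These shares are descriptions of sequence and not of binding.

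Some motifs went with stronger sites. From the weakest to the strongest quartile of first-intron sites by fold enrichment, the share with the PU.1 letters went from 7.52% to 11.5%, and that with the RUNX letters from 9.97% to 13.4%. Among the 100 strongest sites these shares were 14.0% and 20%. Sites with the CTCF core had a median log2 fold enrichment of 2.89 against 2.67 without it, and sites with the PU.1 letters 2.84 against 2.67. The GATA letters showed no such gradient, with 8.50% in both quartiles. Sites called in 1 library alone held the PU.1 letters at 5.35% and the RUNX letters at 9.23%.

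At the strongest first-intron sites the values of the groups overlapped. Of the first-intron sites called in all libraries, 67 (0.563%) lay in the top 1% of tested autosomal sites. The highest lay in Il31ra, a subunit of the interleukin-31 receptor, at chr13:112577941-112578441, 2471 bp from the start site. The Ctrl libraries had a fold enrichment of 44.1, 44.5 and 41.0 there, and the WTAkita libraries, at 40.4, 44.4, 43.0 and 44.3, overlapped them. The next was in Tmem56 at chr3:121242837-121243337, with 32.5, 33.1 and 35.8 in Ctrl and 28.7, 32.1, 34.7 and 35.3 in WTAkita. The site in Efna5, which encodes the ligand ephrin-A5, at chr17:62844224-62844724 had 32.4, 34.5 and 34.0 in Ctrl and 33.0, 33.2, 31.7 and 34.4 in WTAkita. The other 5 of the strongest 8 lay in Xkr6, Plag1, a zinc finger transcription factor, Dpp6, an auxiliary subunit of potassium channels, Slc16a7, a monocarboxylate transporter, and the receptor gene Gpr45. Their mean levels were a normalized log2 fold enrichment of 4.93 to 5.04, and the mean pileups of all 8 were 206 to 431 tags. Several of these genes are best known outside blood cells, and a first intron that holds a site need not belong to the gene the site acts on.

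Genes with many sites included regulators of transcription and signalling. Apart from Gm20388, the genes with most sites called in all libraries were Rora (47 of 91 sites), a nuclear receptor, Prkce (38 of 54), a protein kinase C, and the Notch co-activators Maml3 (35 of 58) and Maml2 (32 of 58). Hivep3, a zinc finger protein, followed with 31 of 55. Relative to length, Prkce had 20.6 such sites per 100 kb of intron and Rora 8.67. Levels within 1 intron spanned a wide range, from a normalized log2 fold enrichment of 1.70 to 4.58 in Rora and from 1.41 to 4.39 in Prkce. Differences between the groups were small and of both signs. In Rora, 22 sites lay above 0 and 25 below (median -0.02), in Prkce 24 and 14 (0.03), in Maml3 24 and 11 (0.06), in Maml2 21 and 11 (0.04) and in Hivep3 17 and 14 (0.02). In Gm20388 the 598 tested sites divided into 299 and 299.

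No first-intron site passed the test across all sites. All differences below are WTAkita minus Ctrl in quantile-normalized log2 fold enrichment, from limma fitted on all 131230 sites called in all 7 libraries, with Benjamini-Hochberg adjustment. At an adjusted p under 0.05, 0 of 11910 first-intron sites were higher and 0 were lower, as over all tested sites (0.0% in each direction). The smallest adjusted p was 1.00. At an unadjusted p under 0.05, 511 first-intron sites (4.29%) passed, 276 higher and 235 lower, against 3.86% of all tested sites. When the log2 difference also had to exceed 0.58, 20 first-intron sites (0.168%) were higher, against 0.109% of all sites, and 21 (0.176%) were lower, against 0.129%. Without the Gm20388 sites these counts were also 20 and 21. Leaving out single libraries gave 19 to 42 higher and 23 to 42 lower sites. When tags at the summit replaced fold enrichment, without quantile normalization, 9 were higher and 60 lower. On that scale the median of all tested sites moved by -0.12 and that of first-intron sites by -0.11. With single libraries left out and with tags at the summit, the shares of all tested sites that passed were not computed. In the main scale the median difference was 0.01 in first-intron sites, with 6303 above 0 and 5607 below, and 0.01 in all sites. Quantile normalization gave every library the same distribution over all tested sites. A median near 0 over all sites was thus set in advance, and this scale cannot show a general change. The 5th and the 95th percentile of the differences were -0.26 and 0.27 in first-intron sites, and -0.26 and 0.25 in all sites.

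The normalized values of the 7 libraries did not overlap between the groups at 616 first-intron sites. They were higher in WTAkita at 351 sites (2.95%, against 2.48% of all tested sites) and lower at 265 (2.23%, against 2.25%). The sites described next were the leading ones in each direction by the limma statistic, and none passed the adjustment (adjusted p 1.00 for each).

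Among the higher ones, Fam155a, which encodes an accessory protein of a sodium channel, came first, with a site at chr8:9403803-9404303. Fold enrichment reached 2.79, 2.99 and 2.73 in the Ctrl libraries against 3.41, 4.20, 5.71 and 5.36 in those of WTAkita, a log2 difference of 0.72 ± 0.16 (SE, unadjusted p = 0.000418). The WTAkita libraries ranged widely here while the Ctrl libraries lay close together. In St6galnac3, a sialyltransferase gene, the site at chr3:153616758-153617258 had a fold enrichment of 11.9, 14.3 and 13.3 in Ctrl against 13.7, 14.9, 18 and 18.2 in the WTAkita libraries, so that the groups overlapped before normalization. They did not after it, with normalized log2 values of 3.65 to 3.71 against 4.02 to 4.06. The difference was 0.36 ± 0.08 (SE), but on the scale of tags at the summit it was 0.24. Tnfrsf11a encodes RANK, the receptor for the osteoclast differentiation factor RANKL. Its site at chr1:105802839-105803339 had a fold enrichment of 5.79, 6.58 and 6.47 in Ctrl and 9.28, 9.29, 10.6 and 8.27 in WTAkita, a log2 difference of 0.64 ± 0.15 (SE). Mcu encodes the pore of the mitochondrial calcium uniporter. The site at chr10:59539298-59539798 had 9.81, 11.2 and 8.84 in Ctrl and 11.3, 12.5, 13.8 and 14.6 in WTAkita, a log2 difference of 0.46 ± 0.11 (SE). The lowest WTAkita value was only just above the highest Ctrl value before normalization. The remaining higher sites were in Plbd1, Nf2, the tumour suppressor merlin, Dgkd, a diacylglycerol kinase, and Asap2, an activator of Arf GTPases, with differences of 0.63, 0.79, 0.60 and 0.37. At Asap2 the groups overlapped before normalization, with a fold enrichment of 10.8, 14.3 and 12.9 in Ctrl and 14.0, 13.3, 16.5 and 18.7 in WTAkita. At Nf2, 77.6% of the central bases were repeat-masked, and at Plbd1 and Nf2 the mean pileup was 17.1 and 18 tags.

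Among the lower ones, the site in Mindy2, a deubiquitinase gene, at chr9:70650145-70650645 led. The 3 Ctrl libraries had a fold enrichment of 4.55, 4.64 and 4.48 and the 4 WTAkita libraries 2.42, 2.47, 3.30 and 3.05, a log2 difference of -0.69 ± 0.15 (SE, unadjusted p = 0.000399). All Ctrl values lay close together and well above the others, at a mean pileup of 15.7 tags. In Pid1, which encodes a phosphotyrosine-binding protein, the site at chr1:84245188-84245688 had 5.59, 7.16 and 5.97 in Ctrl and 3.43, 2.66, 4.0 and 4.57 in WTAkita, a log2 difference of -0.74 ± 0.17 (SE). Ifi202b belongs to the interferon-inducible p200 family. Its site at chr1:173977524-173978024 was the strongest of these 8, with 24.0, 31.7 and 31.9 in Ctrl and 18, 21.1, 25.7 and 26.3 in WTAkita. Before normalization the groups overlapped, because Ctrl replicate 1 lay within the WTAkita range, and after it the difference was -0.30 ± 0.08 (SE). Ifi202b has close relatives in the same gene family, so that its reads may be split among copies. A site at chr1:88158280-88158780 lay in the shared first intron of Ugt1a8, Ugt1a9 and Ugt1a10, glucuronosyltransferases, with a difference of -0.69. The others lay in Akain1 (-0.74), Rasgef1a (-0.58), a Ras exchange factor, Egfem1 (-0.59) and Ralgps2 (-0.61), a Ral exchange factor. Repeat-masked bases made up 100% of the central stretch at Pid1 and 73.6% at Akain1. At 7 of the 8 lower sites the mean pileup was 15.6 to 27.3 tags, and at Ifi202b it was 119.

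**Figure D4:**
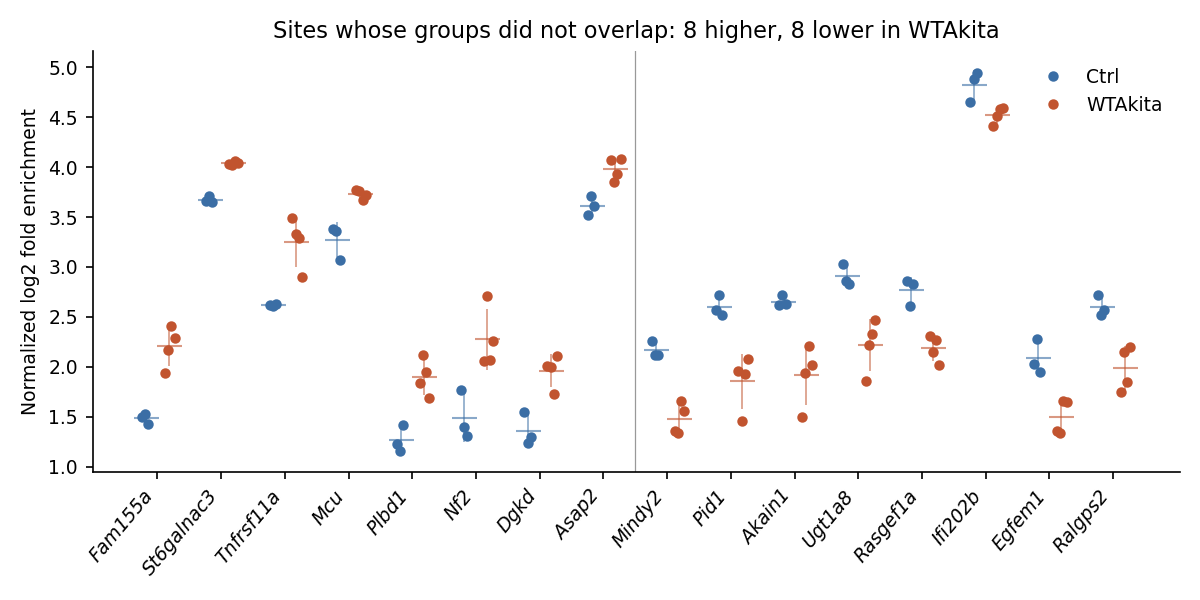
Normalized log2 fold enrichment (y axis) in each library at the 8 leading higher (left of the line) and 8 leading lower (right) first-intron sites whose groups did not overlap, named by gene (x axis; Ugt1a8 stands for the 3 Ugt1a genes). Dots are libraries, Ctrl in blue (n = 3) and WTAkita in orange (n = 4), with the mean as a dash and the SD as a bar, and no site passed the adjustment over all sites.

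Sites called in every library of 1 group and in none of the other were few and weak. There were 32 first-intron sites (0.137%) called in all 3 Ctrl and no WTAkita library, against 0.146% of all sites, and 33 (0.142%) called in all 4 WTAkita and no Ctrl library, against 0.111%. The leading Ctrl site lay in Gna14, a G protein alpha subunit, at chr19:16527003-16527503, with a fold enrichment of 3.72, 3.87 and 5.23. Those in Abca8b, a lipid transporter, and Snx13, a sorting nexin, had 3.63, 3.86 and 4.41 and 4.14, 3.48 and 3.49. The leading WTAkita site lay in Enpp6, a choline phosphodiesterase, at chr8:46992145-46992645, with 2.82, 4.94, 5.42 and 4.36. Gabbr2, a GABA-B receptor subunit, had 3.03, 3.61, 4.95 and 4.14, and Rgs10, a regulator of G protein signalling, had 3.13, 3.66, 3.84 and 4.64. The mean pileups of these 6 sites were 16.3 to 20 tags, near those of sites called in only some libraries, and a site that is not called is below the authors' threshold rather than closed.

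None of the first-intron sites in the 11 gene lists passed the adjusted test. Of the 36 stem cell factors, 13 had first-intron sites, 175 in all, and 93 were tested. Their differences were above 0 at 57 and below 0 at 36 (median 0.04), and 3 passed an unadjusted p under 0.05, 2 of them higher, which is 3.23% against 3.86% of all sites. Prdm16, required for stem cell maintenance, had 40 sites and Fli1, an ETS factor, had 28. The strongest lay in Runx3 at chr4:135128709-135129209, with a fold enrichment of 17.3, 18.4 and 21.7 in Ctrl and 16.8, 16.8, 20.4 and 17.7 in WTAkita. Runx2, another factor of the RUNX family, held the site farthest above 0, at chr17:44728357-44728857. It had 6.42, 6.16 and 5.69 in Ctrl and 9.77, 7.80, 8.19 and 8.95 in WTAkita, a log2 difference of 0.57 ± 0.17 (SE, unadjusted p = 0.00454). Foxo1, a transcription factor downstream of insulin signalling, held the site farthest below 0, at chr3:52331691-52332191. It had 4.14, 6.39 and 6.22 in Ctrl and 2.82, 3.42, 4.71 and 2.83 in WTAkita, a log2 difference of -0.65 ± 0.19 (SE, unadjusted p = 0.00472), and Ctrl replicate 1 lay below WTAkita replicate 3.

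Growth factor receptors and adhesion genes had differences of both signs. Of 60 tested sites of the receptors, 33 lay above 0 and 27 below (median 0.02). The strongest was in Igf1r, the receptor for insulin-like growth factor 1, where the normalized log2 level averaged 4.18 ± 0.10 over the Ctrl libraries (SD, n = 3) and 4.26 ± 0.09 over the WTAkita libraries (SD, n = 4). Tek, the angiopoietin receptor, had the largest difference above 0, 0.42 ± 0.16 (SE), and Kit, the receptor for stem cell factor, the largest below, -0.39 ± 0.16 (SE). At the Kit site, chr5:75604153-75604653, Ctrl libraries had a fold enrichment of 4.60, 3.86 and 4.08 against 2.71, 3.10, 3.83 and 2.89 in WTAkita libraries. After normalization the groups overlapped, with log2 values of 1.860 in Ctrl replicate 2 and 1.864 in WTAkita replicate 3. The site was 1 of 6 tested sites in the intron of Kit, 2 above 0 and 4 below. The 24 tested sites of adhesion and homing genes divided into 15 and 9 (median 0.02), between -0.25 in Selplg, the ligand of P-selectin, and 0.27 in Itgb3, an integrin. The Itgb3 value was 0.05 without Ctrl replicate 3 and 0.43 without WTAkita replicate 3. Their strongest site was in the integrin gene Itga6, at 4.20 ± 0.15 (SD, n = 3) and 4.29 ± 0.15 (SD, n = 4).

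The lineage lists were of unequal size. Lymphoid genes had 56 tested sites, 36 above 0 and 20 below (median 0.07). Il2ra, the interleukin-2 receptor alpha chain, held the strongest (4.59 ± 0.08, SD, n = 3, and 4.63 ± 0.09, SD, n = 4). Bach2, a repressor that guides lymphoid fate, held the highest difference, at chr4:32279723-32280223, with a fold enrichment of 8.76, 7.76 and 6.08 in Ctrl and 10.4, 9.36, 10.3 and 13.8 in WTAkita. Its log2 difference was 0.60 ± 0.16 (SE, unadjusted p = 0.00271), and 11 of 16 tested Bach2 sites lay above 0. Ets1 held the lowest, -0.24 ± 0.13 (SE). Erythroid and megakaryocyte genes had 11 tested sites, 5 above 0 and 6 below (median -0.01). These ran from -0.24 in Tmod1 to 0.21 in Slc25a37, the mitochondrial iron importer, which also held the strongest. Myeloid genes had 2, in Emb (-0.0023) and Fcer1g (0.17).

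Metabolic and stress genes differed in how many first-intron sites they held, from 31 sites in the respiratory chain list to 87 in the glucose and insulin list. The 44 genes of the respiratory chain, the TCA cycle and glycolysis had 14 tested sites, 7 above 0 and 7 below. Citrate synthase, Cs, held the strongest (4.05 ± 0.22, SD, n = 3, and 4.14 ± 0.08, SD, n = 4), and the differences ran from -0.48 in Suclg2, a subunit of succinyl-CoA synthetase, to 0.24 in the phosphofructokinase Pfkm. The 30 oxidative stress genes had 22 tested sites, 11 above 0 and 11 below. These ran from -0.23 at one site of Sesn1, a sestrin, to 0.21 in Srxn1, sulfiredoxin, and another Sesn1 site was the strongest (4.0 and 4.14). The glucose and insulin list had 46 tested sites, 28 above 0 and 18 below (median 0.03), with the strongest in Ptpn1, a phosphatase that acts on the insulin receptor (4.25 and 4.29). The site farthest below 0 was the Foxo1 site given above, since Foxo1 was also a stem cell factor, with 8 tested sites. Igf1r and Insr, with 8 and 2 tested sites, were also among the growth factor receptors, so that these lists are not separate.

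Inflammation genes had 27 tested sites, 12 above 0 and 15 below (median -0.02). Aim2, a sensor of cytosolic DNA, held the strongest (4.57 ± 0.09, SD, n = 3, and 4.49 ± 0.06, SD, n = 4). Nfkb1, the precursor of an NF-kappaB subunit, held both extremes within 1 intron, 0.26 ± 0.14 (SE) at chr3:135681222-135681722 and -0.31 ± 0.15 (SE) at chr3:135686402-135686902. After normalization the groups did not overlap at either site, in opposite directions, with unadjusted limma p-values of 0.0818 and 0.0604. Before normalization they overlapped at the higher site, with a fold enrichment of 5.39, 6.11 and 6.88 in Ctrl and 5.94, 6.21, 7.72 and 8.44 in WTAkita. Genes of DNA methylation and chromatin had 53 tested sites, 34 above 0 and 19 below (median 0.04). Of these, 2 (3.77%, against 3.86% of all tested sites) passed an unadjusted p under 0.05, both of them lower. Dnmt1, the maintenance methyltransferase, had 1 tested site, with a difference of -0.10, and Dnmt3a, a de novo methyltransferase, had 5, of which 4 lay above 0 and the highest at 0.26 ± 0.16 (SE). The lowest was in Kmt2c, a histone H3 methyltransferase, at -0.47 ± 0.16 (SE), where the groups did not overlap and 94.0% of the central bases were repeat-masked. The strongest lay in Arid1a, a subunit of SWI/SNF chromatin remodelling complexes (4.07 and 4.17).

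**Figure D5:**
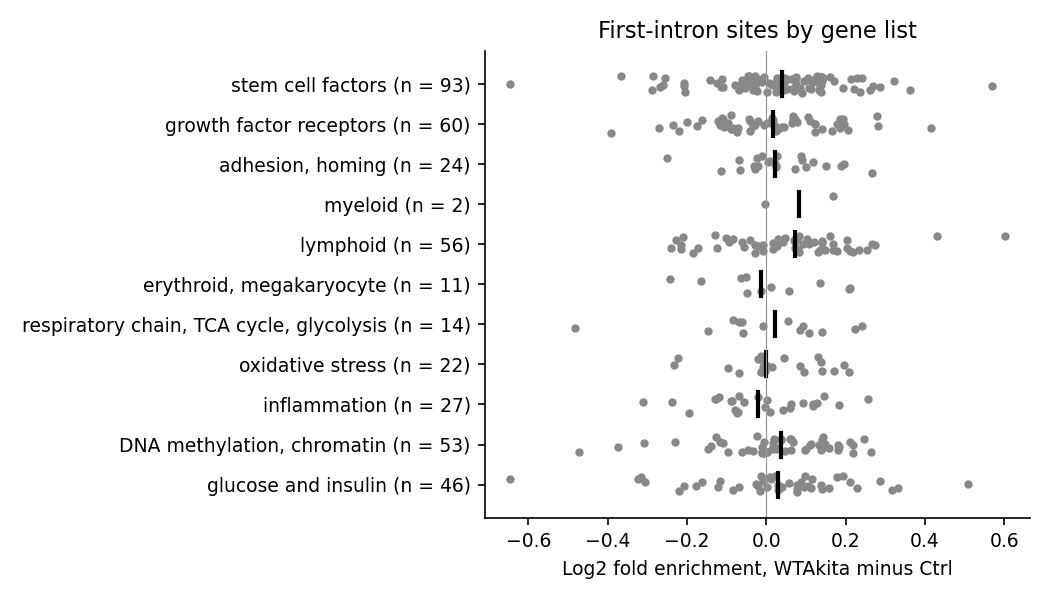
Log2 fold enrichment, WTAkita minus Ctrl (x axis), of each tested first-intron site (grey dots) in 11 gene lists (y axis, with the number of tested sites), with the list's median as a black bar. The medians ran from -0.02 to 0.08, the last over 2 myeloid sites, against 0.01 over all first-intron sites.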

How the data were processed

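Per the labels, ATAC-Seq libraries were made from LSK cells of Ctrl (n = 3) and WTAkita (n = 4) offspring. After trimming, the authors mapped reads to mm10 (Bowtie2 2.3.4.1), filtered out duplicates and ran the peak caller MACS2 (version 2.1.4 per the processing notes) on each library by itself, at p 0.01, without a control library and with reads extended to 150 bp. Fold enrichment, a ratio of summit pileup to local background, and −log10 p-values, which depend on depth, were used as the authors deposited them. Neither is scaled across libraries. Tags per library were estimated, so depth is approximate.

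Pileup and background were solved from the deposited fold enrichment and −log10 p-values, and came out whole, within 0.02, for at least 99.9958% of peaks. Sites called in all 7 libraries were quantile-normalized on the log2 scale and tested with limma 3.58.1 (trend, R 4.3.3) over all sites, after tests on simulated data. Library values were compared with exact permutation tests (scipy 1.17.1). The sign-flip tests of first introns against other introns were chosen after their values were seen. Similarity to the mitochondrial genome was searched with BLAST 2.17.0. The mean chi-square of pileups between libraries was 1.10 to 1.87, above the 1 of sampling noise, so each library counted once.

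The members, gene lists, motifs and rules were chosen with earlier results of these data known. Named sites were the 8 leading sites per direction whose groups did not overlap, the 8 strongest, the 5 genes with most sites called in all libraries, the 3 leading sites called in 1 group only per direction, and the strongest, highest and lowest site of each gene list. One of these is not reported here.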

Additional observations from a re-analysis of the deposited data

Results flagged for a closer look

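In 63 sets of 4 WTAkita values, 2 had a library far from the other 3, with a gap to its nearest neighbour that took up nearly all of the range (Dixon's test), and chance alone gives about 1 in 20. At the Tek site, WTAkita replicate 1 had a fold enrichment of 5.04 against 6.08, 6.12 and 6.10 in the others (gap over range 0.963). At the Ets1 site farthest below 0, WTAkita replicate 3 had 11.6 against 8.98, 8.72 and 8.85 (0.898). Neither site passed the adjusted test.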

How the results depend on the processing

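No first-intron site passed an adjusted p of 0.05 under any alternative run. The counts at an unadjusted p under 0.05 and a log2 difference over 0.58 (20 higher, 21 lower) did depend on the settings. Shares over all tested sites were not computed under the alternatives, so whether these changes are particular to first introns was not tested. The first-intron counts were 6 and 6 with peaks of −log10 p of at least 5, 9 and 60 with summit pileup, and 3 and 2 above the median level. They were 95 and 73 when WTAkita replicates 1 and 2 and Ctrl replicate 1, the lowest in median fold enrichment, were left out together. Lower sites numbered 40 when a call in 75% of a group sufficed, 36 with the replicate block (24 higher) and 12 with the median fold enrichment as a covariate. Libraries with the same number deviated with correlations of 0.22, 0.02 and 0.06, and the first was the highest of all pairs across the groups. Ctrl replicate 3 and WTAkita replicate 3 had the lowest mean chi-square of any pair (1.10). The labels do not state pairs, and the main test did not use any. With the replicate block in limma, 6.19% of first-intron sites passed an unadjusted p under 0.05, against 4.29% of them without the block. The share of all tested sites with the block was not computed. The smallest adjusted p among first-intron sites was then 0.328. Leaving out single libraries gave 19 to 42 higher and 23 to 42 lower sites, with the highest counts (42 and 42) without Ctrl replicate 1. Higher sites were over 1.5 times the main count without each Ctrl library (42, 39 and 37) and without WTAkita replicates 1 and 2 (31 and 33), and lower sites without each Ctrl library (42, 33 and 32) and WTAkita replicate 4 (33).

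Sites called in 1 group only (0.137% of first-intron sites for Ctrl, 0.142% for WTAkita) became 0.113% for Ctrl when overlapping intervals were merged and 0.0859% for WTAkita with −log10 p of at least 5. Since fewer libraries must agree, the shares were 0.236% to 0.614% and 0.232% to 0.433% when single libraries were left out, and 1.22% and 2.12% without the 3 libraries. The same shares over all sites were not computed under these alternatives. The difference in the first-intron share (0.0401 percentage points) ranged from -0.0338 to 0.0896 on leaving out single libraries. It was -0.0338 without WTAkita replicate 4, 0.0896 and 0.0727 without WTAkita replicates 1 and 2, 0.0248 without Ctrl replicate 1, 0.0244 with −log10 p of at least 5 and 0.148 without the 3 libraries. The level relative to other introns (0.0196) kept its sign but ranged from 0.0043 without WTAkita replicate 1 to 0.0373 without Ctrl replicate 1. It was 0.0130 and 0.0084 without Ctrl replicates 2 and 3, 0.0321 without WTAkita replicate 4, 0.0062 without the 3 libraries, 0.0060 over 5000 bp from start sites, 0.0096 with the longest transcript by span and 0.0341 with summit pileup. Omitting the Gm20388 sites, an alternative added after seeing the data, left all 8 results with the same direction and call. Of 37 named differences, 1 changed sign under some of 14 alternatives. The Emb site (-0.0023) was 0.0083 with median centring, 0.0269 with GC correction, 0.0055 with the replicate block, 0.0073 with the covariate, -0.26 with summit pileup, -0.11 to 0.0559 without single libraries and 0.10 without the 3 libraries. With summit pileup, differences moved by over 1.5 times at St6galnac3 (0.24), Ets1 (-0.40), Slc25a37 (0.0972), Fcer1g (0.0628), Pfkm (0.11) and Srxn1 (0.0928), as well as at Emb. Under at least 1 alternative, 13 of the 37 differences moved by over 1.5 times. Apart from these 7 sites they were Itgb3 (0.05 to 0.43), Selplg (-0.45 to -0.18), Tmod1 (-0.38 to -0.11), Sesn1 (-0.36 to -0.08), Suclg2 (-0.74 to -0.30) and Dnmt3a (0.15 to 0.38). The causes were not tested. At weak sites, pileups of 15.0 to 20.3 tags limit what could be seen.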

Other observations

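The share of first-intron sites with an unadjusted p under 0.05 differed between the 4 quartiles of fold enrichment. It was 5.78%, 4.37%, 3.12% and 3.90% from the weakest to the strongest quartile, and 18, 18, 3 and 2 sites of these quartiles also exceeded a log2 difference of 0.58. Over all levels, 3.86% of all tested sites had an unadjusted limma p under 0.05. Their shares by quartile were not computed, so whether the pattern is particular to first introns was not tested. The median pileups of the quartiles were 32.1, 30.3, 52.9 and 118 tags. By distance from the own start site, the median difference between WTAkita and Ctrl was 0.03 at 2 to 5 kb and -0.0009 at 50 to 100 kb. Between libraries, normalized levels of first-intron sites correlated with r from 0.92 to 0.95 over the 11910 sites called in all libraries, which is a description across sites that share the peak calling.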
